A study of Mus musculus with 6 samples.

Results

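The BCL2 family decides whether a cell opens its outer mitochondrial membrane and dies, and 10 of its genes were followed here in mouse advanced embryonic stem cells with and without *Bdh2*. The 10 were taken by gene symbol and are the pro-survival genes *Bcl2*, *Bcl2l1*, *Bcl2l2* and *Mcl1*, the effector genes *Bax*, *Bak1* and *Bok*, and the BH3-only genes *Bid*, *Bad* and *Bcl2l11*. They are 10 of the 54715 genes in the count table, and all 10 were among the 16758 genes with enough counts to be tested. Expression was read by RNA-Seq in 6 libraries, 3 for each genotype. ASCs are an advanced pluripotent state of ESCs, cultured with activin A, BMP4, the GSK3 inhibitor CHIR99021 and LIF on fibronectin. Both groups came from a cross of a 129/sv female with a GOF/GFP male, and so both shared the GOF/GFP background, an *Oct4*-GFP reporter. The WT ASCs had an intact *Bdh2* gene, and the *Bdh2*-/- ASCs carried a bi-allelic deletion made with CRISPR/Cas9 and sgRNAs near the start codon. The methods describe the selection of a knockout line grown from a single colony for the later experiments, so that the effect of *Bdh2* and the properties of that clone cannot be told apart. Nothing in the labels says whether the 3 replicates of a group came from separate cultures, and the p-values therefore measure the spread between these samples, which may be technical.

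Proteins of the BCL2 family meet at the outer membrane of mitochondria. BH3-only proteins respond to stress and occupy a groove on the pro-survival proteins, BAX and BAK assemble into pores that release cytochrome c, and the pro-survival proteins hold both in check. Pluripotent stem cells are known for a ready apoptotic response, and *Mcl1* is needed by the mouse embryo around implantation.

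The member genes share a short coding motif, the core of the BH3 region by which the proteins bind each other, and its stretch is shown for each gene because all 10 genes hold it. The coding stretch holds 36 bases, read 5′ to 3′ from the GENCODE M21 transcripts of GRCm38, and the 18 capitals are the 6 codons of the core, which is leucine or methionine, then 3 residues of any kind, then glycine or serine, then aspartate. The stretches lie at chr1:106712575-106712610 (*Bcl2*, minus strand), chr2:152829697-152829732 (*Bcl2l1*, minus), chr14:54884508-54884543 (*Bcl2l2*, plus), chr3:95659427-95659462 (*Mcl1*, plus), chr7:45465997-45466032 (*Bax*, minus), chr17:27022531-27022566 (*Bak1*, minus), chr6:120897289-120897324 (*Bid*, minus), chr19:6950783-6950818 (*Bad*, plus) and chr2:128147141-128147176 (*Bcl2l11*, plus). The *Bok* stretch on the plus strand is cut by an intron into chr1:93686648-93686669 and chr1:93689157-93689170.
Bcl2: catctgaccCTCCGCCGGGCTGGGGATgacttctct
Bcl2l1: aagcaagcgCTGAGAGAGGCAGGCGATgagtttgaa
Bcl2l2: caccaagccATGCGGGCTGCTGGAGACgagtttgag
Mcl1: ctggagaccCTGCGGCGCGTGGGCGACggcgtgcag
Bax: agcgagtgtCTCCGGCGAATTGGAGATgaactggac
Bak1: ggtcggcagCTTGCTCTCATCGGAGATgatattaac
Bok: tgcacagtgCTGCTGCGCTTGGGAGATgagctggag
Bid: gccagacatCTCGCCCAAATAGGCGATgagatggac
Bad: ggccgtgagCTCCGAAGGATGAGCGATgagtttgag
Bcl2l11: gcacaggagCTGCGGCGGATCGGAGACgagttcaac
All are in coding exons, 9 within 1 exon and *Bok* across exons 2 and 3. In 9 of the 10 the core opens with a leucine codon, and in *Bcl2l2* it opens with ATG, for which the search was widened after *Bcl2l2* had given no match. A serine codon takes the place of the glycine codon in *Bad*. Each member held 1 match, whereas 6512 of 21693 coding genes (30.02%) hold at least 1, so the motif alone does not mark the family.

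The knockout ASCs held more mRNA of the pro-survival genes *Mcl1* and *Bcl2l1* and less of the pro-survival gene *Bcl2l2*. Smaller differences were measured for the effectors, with *Bax* and *Bok* higher and *Bak1* lower. The BH3-only members *Bid*, *Bad* and *Bcl2l11* did not pass the test. Of the 10 members, 6 were called at an adjusted p under 0.05 in edgeR's quasi-likelihood test, 4 of them higher and 2 lower, where 41.7% of all tested genes were called, 21.0% as higher and 20.8% as lower. The values of WT and knockout libraries did not overlap for 7 of the 10 members, which are the 6 called and *Bcl2*, against 52.4% of all tested genes. With so much of the transcriptome called, 6 of 10 is not far from the background. Without TMM, the scaling step that corrects library totals for composition, the split over all genes moved from 3518 higher and 3478 lower to 2731 higher and 4451 lower, and the members called from 4 higher and 2 lower to 2 and 2. Without WT replicates 1 and 2, which held the most adult hepatocyte transcripts, 3 members were called, *Mcl1* and *Bcl2l1* as higher and *Bcl2l2* as lower, and the calls over all genes went from 6996 to 4386. These are bulk libraries, in which fewer cells of a type and less RNA per cell cannot be told apart.

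**Figure D1:**
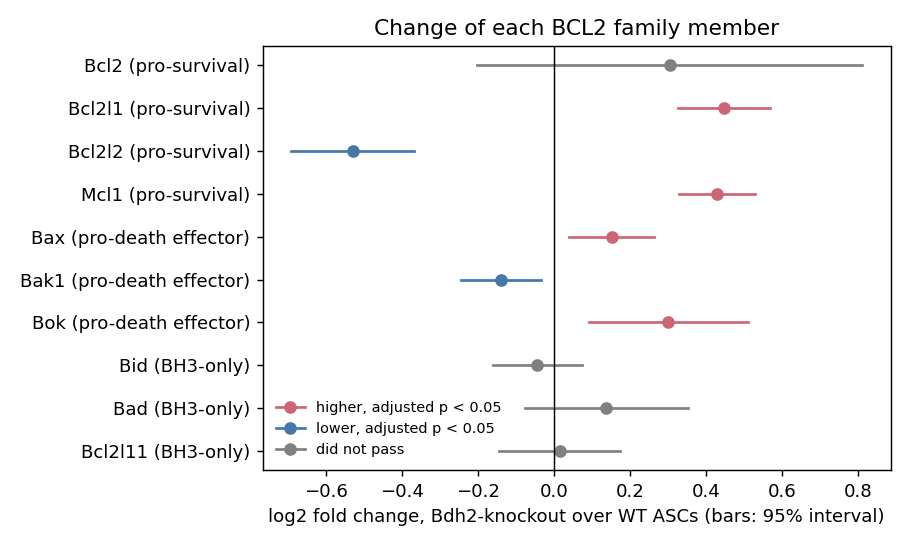
Change of each member, as the log2 fold change of *Bdh2*-knockout over WT ASCs, with bars for the 95% interval and colour for the result of the edgeR test. *Mcl1* (0.43) and *Bcl2l1* (0.45) lie to the right of 0 and *Bcl2l2* (-0.53) to the left, while the BH3-only members *Bid*, *Bad* and *Bcl2l11* have intervals that include 0.

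Library totals ran from 18927748 to 28333541 gene counts, so that 3 counts equal 0.109 to 0.155 CPM (counts scaled to the TMM library size), a floor that covers counting error only. The targeted gene *Bdh2* fell by 0.79 on the log2 scale (SE 0.12, edgeR adjusted p = 2.46e-04), from 9.43 ± 1.10 to 5.44 ± 0.485 CPM (SD, n = 3). Reads from outside the deletion are still counted, so the remainder does not measure intact *Bdh2*. The summed level of 8 pluripotency markers was 4088 to 4406 CPM in WT and 4672 to 4805 CPM in knockout ASCs, and 5 of the 8 were called higher. The others did not pass, namely *Sox2* (log2 fold change -0.13, edgeR adjusted p = 0.0578), *Nanog* (-0.06, edgeR adjusted p = 0.361) and *Zfp42* (0.05, edgeR adjusted p = 0.376). The 10 primitive endoderm markers summed to 239.8 to 263 CPM in WT and 602 to 662 CPM in knockout ASCs, and 10 of 10 were called higher. Adult hepatocyte transcripts, which do not belong to either label, summed to 491, 296 and 36.5 CPM in WT replicates 1, 2 and 3 and to 27.1, 132 and 14.98 CPM in knockout replicates 1, 2 and 3, with 12 of 13 tested markers called lower in the knockout. Fibroblast markers summed to 31.9 to 36.1 CPM in WT and 23.9 to 29.2 CPM in knockout ASCs, with 2 of 6 tested called lower. Over all tested genes 21.0% were called higher and 20.8% lower, and no marker list held a gene at 0 in all libraries. The part of these marker genes in the results below was not tested beyond the fits given beside them.

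*Mcl1* (ENSMUSG00000038612, chr3:95658788-95663176, plus strand) encodes a short-lived pro-survival protein that holds BAK and BIM. Levels of different genes are compared here in TPM, which scale the counts by the listed gene length and by library size. *Mcl1* stood at 366, 375 and 380.03 TPM in the 3 WT replicates and at 503, 482 and 511 TPM in the 3 knockout replicates. The lowest knockout library was above the highest WT library. Its normalized counts rose by a log2 fold change of 0.43 (SE 0.05, 95% interval 0.33 to 0.53, edgeR adjusted p = 1.45e-05), which is 34.5% more mRNA. Leaving out any 1 library gave 0.41 to 0.46, and a fit with the hepatocyte transcripts as a covariate gave 0.39 (edgeR adjusted p = 1.9e-04). In absolute size this change ranked at percentile 72.9 of all tested genes, and the mean level of *Mcl1* at percentile 98.4.

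*Bcl2l1* (ENSMUSG00000007659, chr2:152780668-152831728, minus strand) encodes BCL-XL, which guards the outer membrane against BAX and BAK. It measured 29.4, 28.9 and 32.02 TPM in WT and 40.3, 42.7 and 39.3 TPM in knockout ASCs. All knockout libraries were above all WT libraries. *Bcl2l1* rose by a log2 fold change of 0.45 (SE 0.06, 95% interval 0.33 to 0.57, edgeR adjusted p = 4.87e-05), or 1.36-fold. The leave-one-out range was 0.42 to 0.49, and the hepatocyte covariate left 0.44 (edgeR adjusted p = 2.3e-04). Gene counts do not separate the long, protective splice form from the short one.

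*Bcl2l2* (ENSMUSG00000089682, chr14:54883377-54888234, plus strand) encodes BCL-W, a pro-survival protein of the same fold. Its levels were 12.8, 12.7 and 12.1 TPM in WT and 8.80, 8.16 and 8.87 TPM in knockout ASCs. Every knockout library was below every WT library. *Bcl2l2* fell by 0.53 on the log2 scale (SE 0.08, 95% interval -0.69 to -0.37, edgeR adjusted p = 1.24e-04), with a leave-one-out range of -0.56 to -0.48. The covariate fit gave -0.53 (edgeR adjusted p = 8.9e-04). Of its exon bases, 13.3% are shared with the same-strand gene *Gm20521*, which had at most 7 counts in any library. Whether reads in the shared bases were counted is not given in the sources used here. The low *Gm20521* count therefore does not measure reads lost from *Bcl2l2*.

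*Bcl2* (ENSMUSG00000057329, chr1:106538178-106714274, minus strand), the founding member of the family, was the least abundant of the 10. It had 23, 28 and 30 counts in WT and 39, 49 and 34 counts in knockout ASCs, or 1.25 ± 0.116 and 1.54 ± 0.219 CPM (SD, n = 3). The log2 fold change was 0.30 (SE 0.23, 95% interval -0.20 to 0.81), and *Bcl2* did not pass the test (edgeR adjusted p = 0.319). The value was 0.18 without knockout replicate 2 and 0.45 with the hepatocyte covariate, and did not pass in either. The interval runs from a loss to a gain larger than that of *Mcl1*, so a gain of the size seen in *Mcl1* and *Bcl2l1* was not detectable at this depth, while a fall of the size seen in *Bcl2l2* lies outside it. Of the 4 pro-survival genes, 2 were called higher and 1 lower, beside 21.0% and 20.8% of all tested genes. Their median log2 fold change was 0.37, where that of all tested genes was -0.01.

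**Figure D2:**
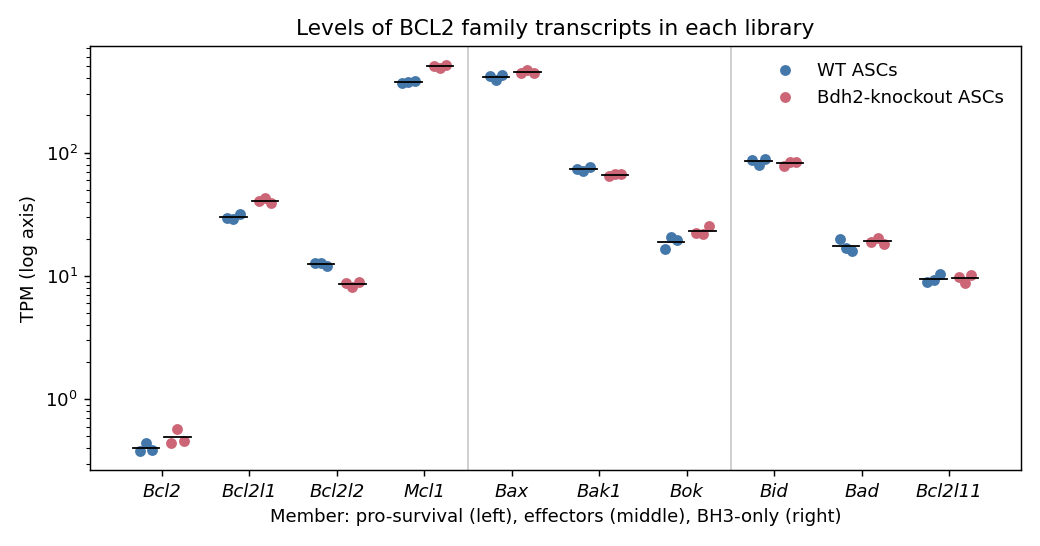
TPM of each member in each of the 6 libraries on a log axis, with WT and *Bdh2*-knockout ASCs in separate colours. *Mcl1* and *Bax* are the most abundant members, *Bcl2* lies below 1 TPM, and the 3 knockout points of *Mcl1* (482 to 511 TPM) lie above the 3 WT points (366 to 380.03 TPM).

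*Bax* (ENSMUSG00000003873, chr7:45461697-45466898, minus strand) encodes a pore-forming effector that moves from the cytosol to mitochondria. It measured 417, 384 and 426 TPM in WT and 442, 468 and 442 TPM in knockout ASCs. The lowest knockout library was above the highest WT library by less than the distance between WT replicates 2 and 3. *Bax* rose by a log2 fold change of 0.15 (SE 0.05, 95% interval 0.04 to 0.26, edgeR adjusted p = 0.0313). The call was lost without WT replicate 2 (0.11, edgeR adjusted p = 0.117), without knockout replicate 1 (0.16, edgeR adjusted p = 0.0672) or 2 (0.13, edgeR adjusted p = 0.114) and with library totals in place of TMM (0.09, edgeR adjusted p = 0.158). With the hepatocyte covariate the difference stayed at 0.16 with a wider SE of 0.07 (edgeR adjusted p = 0.0899). Of the *Bax* exon bases, 12.2% are shared with the same-strand gene *Gm45808*, which had at most 2 counts in any library. Whether reads in these shared bases were counted is not given in the sources used here.

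*Bak1* (ENSMUSG00000057789, chr17:27019810-27029009, minus strand) encodes BAK, the effector that sits in the mitochondrial membrane. Its levels were 73.6, 70.8 and 76.4 TPM in WT and 64.8, 67.4 and 66.7 TPM in knockout ASCs. All knockout values were below the WT values. *Bak1* fell by 0.14 on the log2 scale (SE 0.05, 95% interval -0.25 to -0.03, edgeR adjusted p = 0.0354). The call did not hold when WT replicate 1 (edgeR adjusted p = 0.0809), WT replicate 3 (0.0754) or knockout replicate 1, 2 or 3 (0.122, 0.0792 and 0.139) was left out, with differences of -0.14 to -0.12. Nor did it hold in DESeq2 (-0.14, adjusted p = 0.0850) or with the hepatocyte covariate (-0.15, edgeR adjusted p = 0.105), where the SE was wider, at 0.06 and 0.07. Exons of the antisense gene *Ggnbp1* cover 25.5% of the *Bak1* exon bases, and *Ggnbp1* was itself called lower (-0.83, edgeR adjusted p = 6.31e-04), with 117 to 243 counts per library against 1166 to 1558 for *Bak1*. Whether counting used strand is not given in the sources used here, so the reads of the pair may be mixed.

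*Bok* (ENSMUSG00000026278, chr1:93685660-93695764, plus strand) encodes a less studied effector relative of BAX and BAK. It stood at 16.5, 20.8 and 19.4 TPM in WT and 22.4, 21.8 and 25.3 TPM in knockout ASCs. The groups did not overlap, though WT replicate 2 came within reach of knockout replicate 2. *Bok* rose by a log2 fold change of 0.30 (SE 0.10, 95% interval 0.09 to 0.51, edgeR adjusted p = 0.0242). The call was lost without WT replicate 1 (0.22, edgeR adjusted p = 0.0886), without knockout replicate 3 (0.26, edgeR adjusted p = 0.0910), with library totals (0.24, edgeR adjusted p = 0.0579) and with the hepatocyte covariate (0.21, edgeR adjusted p = 0.197).

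The BH3-only genes, whose products relay stress to the rest of the family, overlapped between the groups in all 3 cases. *Bid* (ENSMUSG00000004446, chr6:120891930-120916853, minus strand), whose protein is cleaved by caspase-8, measured 87.3, 79.1 and 88.2 TPM in WT and 77.7, 83.8 and 83.7 TPM in knockout ASCs. Its log2 fold change was -0.04 (95% interval -0.16 to 0.07, edgeR adjusted p = 0.536), an interval that does not reach the size of the *Mcl1* change, and it was -0.09 to -0.01 with 1 library left out. *Bad* (ENSMUSG00000024959, chr19:6941861-6951898, plus strand), whose protein is held by 14-3-3 proteins when phosphorylated, measured 19.98, 16.8 and 15.8 TPM in WT and 18.9, 20.2 and 17.99 TPM in knockout ASCs. The highest and the lowest *Bad* value among the WT libraries enclosed 2 of the 3 knockout values. Its log2 fold change was 0.14 (95% interval -0.08 to 0.35, edgeR adjusted p = 0.289). It moved to 0.06 without WT replicate 3 (edgeR adjusted p = 0.671), to 0.24 without WT replicate 1 (edgeR adjusted p = 0.0692) and to 0.29 with the hepatocyte covariate (edgeR adjusted p = 0.0666), and did not pass in any of these. *Bcl2l11* (ENSMUSG00000027381, chr2:128126038-128162547, plus strand) encodes BIM, which binds every pro-survival protein of the family, and measured 8.93, 9.28 and 10.3 TPM in WT and 9.77, 8.76 and 10.1 TPM in knockout ASCs. Its log2 fold change was 0.01 (95% interval -0.14 to 0.17, edgeR adjusted p = 0.889). Its sign was not stable, at 0.08 without knockout replicate 2, -0.03 without WT replicate 1 and -0.11 with the hepatocyte covariate, and it did not pass in any of these. Exons of antisense genes cover 17.7% of the exon bases of *Bid* (*Bcl2l13*) and 20.5% of those of *Bad* (*Gpr137*, called lower at -0.38, edgeR adjusted p = 0.0106). For *Bad* this is a share of 2558 exon bases in GENCODE M21, where the listed gene length is 2007 bases. The share among the counted *Bad* bases may thus differ. Over the 6 pro-death genes, 2 were called higher and 1 lower, beside 21.0% and 20.8% of all tested genes, at a median log2 fold change of 0.08. This median was 0.018 with library totals in place of TMM and 0.0084 without WT replicates 1 and 2.

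Across the 15 alternative scalings, tests, filters and left-out libraries, the calls of *Mcl1*, *Bcl2l1* and *Bcl2l2* held in each, and those of *Bax*, *Bak1* and *Bok* were lost in 7, 10 and 5.

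**Figure D3:**
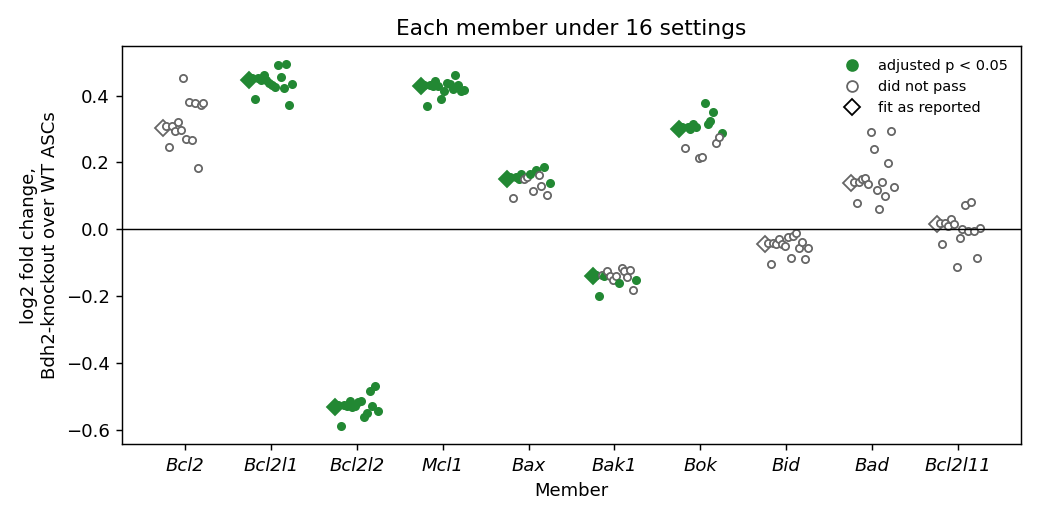
Log2 fold change of each member under the main setting and the 15 alternatives (14 for *Bcl2*, which was not tested with a mean count of at least 50), with filled points where the member was called. *Mcl1*, *Bcl2l1* and *Bcl2l2* were called under all 16 settings, whereas *Bax*, *Bak1* and *Bok* lost the call under some.

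In WT ASCs the order of mean TPM was *Bax*, *Mcl1*, *Bid*, *Bak1*, *Bcl2l1*, *Bok*, *Bad*, *Bcl2l2*, *Bcl2l11* and *Bcl2*. Only *Bok* and *Bad* had overlapping ranges among neighbours of this order in WT. In knockout ASCs *Mcl1* stood above *Bax* in every library, and *Bcl2l11* stood above *Bcl2l2* in the mean with overlapping ranges. The crossing of *Mcl1* and *Bax* depends on the length each gene is given. With the longest annotated transcript as length, *Bax* stayed above *Mcl1* in every library, at a mean of 454 against 289 TPM in WT and 500.1 against 386 TPM in knockout ASCs. With the same lengths *Bcl2l1* stood above *Bak1* in every knockout library (mean 56.4 against 51.8 TPM) but below it in WT (41.6 against 57.5 TPM). *Bcl2l11* was then above *Bcl2l2* already in the WT mean (11.7 against 11.4 TPM), so that this crossing depends on the lengths too. The fold change of each member between the groups does not use the lengths.

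Set against each other, the pro-survival genes made up 39.6, 41.8 and 40.02% of the TPM of the 10 members in WT and 46.5, 44.3 and 46.4% in knockout ASCs. The groups did not overlap, at 40.5 ± 1.15% and 45.7 ± 1.25% (SD, n = 3). Most of this is *Mcl1*, which held 89.7 ± 0.208% of the pro-survival TPM in WT and 90.9 ± 0.489% in knockout ASCs. Without *Mcl1*, a choice made after seeing the data, the pro-survival share was 6.56 ± 0.182% in WT and 7.12 ± 0.108% in knockout ASCs. The summed pro-survival TPM went from 417 ± 8.12 to 548 ± 13.5, with no overlap, and the summed pro-death TPM from 613 ± 28.8 to 651 ± 17.98, with overlap.

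**Figure D4:**
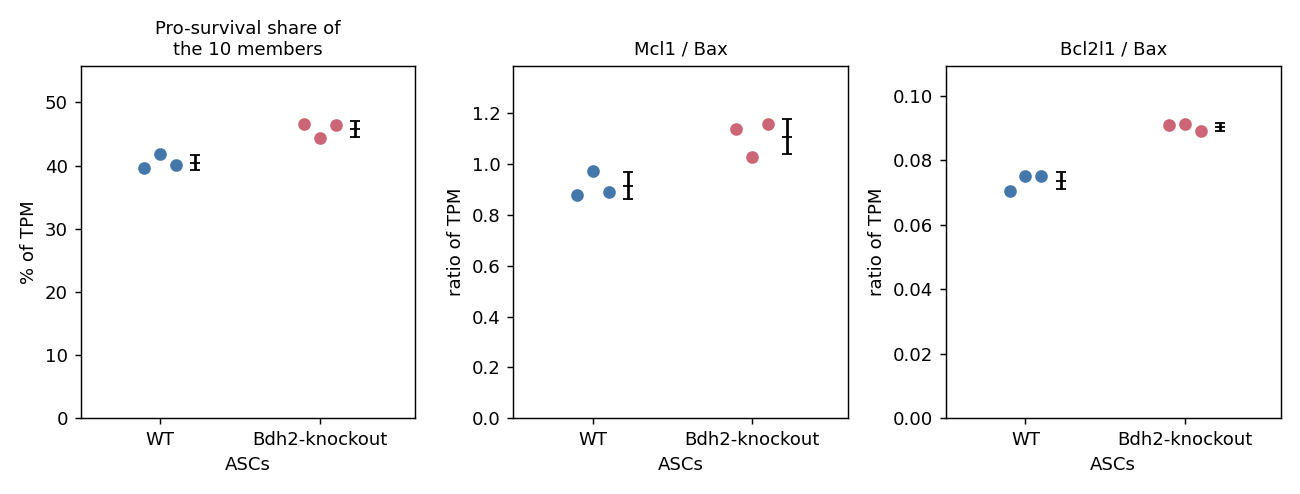
Pro-survival share of the TPM of the 10 members, and the ratios of *Mcl1* and *Bcl2l1* to *Bax*, in each library, with mean and SD (n = 3) beside the points. In each panel the 3 knockout libraries lie above the 3 WT libraries, as in the share of 44.3 to 46.5% against 39.6 to 41.8%.

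The ratio of *Mcl1* to *Bax* was 0.878, 0.975 and 0.892 in WT and 1.14, 1.03 and 1.16 in knockout ASCs. That of *Bcl2l1* to *Bax* was 0.0705, 0.0752 and 0.0751 in WT and 0.0911, 0.0911 and 0.0890 in knockout ASCs. Both ratios were higher in all knockout libraries. Against *Bak1* the distance was wider, since *Bak1* was lower, with a *Bcl2l1* to *Bak1* ratio of 0.409 ± 0.0101 in WT and 0.614 ± 0.0229 in knockout ASCs. The ratio of *Bcl2l2* to *Bax* went the other way, from 0.0307 ± 0.00236 to 0.0191 ± 0.00149. These shares and ratios are descriptions and carry no test.

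The promoters of the pro-survival genes that rose are shown because both genes were called higher. The sequences are the 250 bases before the annotated start in RefSeq (GRCm38.p6), with motif matches in capitals, at chr3:95658471-95658720 on the plus strand for *Mcl1* and, for the most upstream of 3 *Bcl2l1* starts, at chr2:152831729-152831978 on the minus strand.
Mcl1: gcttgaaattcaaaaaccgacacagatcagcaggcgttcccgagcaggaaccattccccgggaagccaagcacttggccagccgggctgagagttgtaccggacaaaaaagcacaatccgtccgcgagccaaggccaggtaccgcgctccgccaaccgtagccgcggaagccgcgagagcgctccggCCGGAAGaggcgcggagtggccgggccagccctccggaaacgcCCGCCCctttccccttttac
Bcl2l1: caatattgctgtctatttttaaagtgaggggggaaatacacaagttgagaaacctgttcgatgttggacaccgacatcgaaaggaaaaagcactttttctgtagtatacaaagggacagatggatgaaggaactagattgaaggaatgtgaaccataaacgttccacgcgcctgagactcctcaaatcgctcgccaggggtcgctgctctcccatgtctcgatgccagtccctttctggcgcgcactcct
The *Mcl1* window holds 1 ETS match (CCGGAAG, found in 6.91% of 32851 promoters) and 1 GC box (GGGCGG, found in 32.74%), with motifs read on both strands. None of the motifs searched was found in the *Bcl2l1* window, and the window of *Bcl2l2*, which fell, holds a GC box. The *Mcl1* window has 26 CpG and a GC content of 64.4%, and the *Bcl2l1* window 12 CpG and 47.6%, against a median of 6 CpG and 52.4% over all promoters. Over all 14 promoters of the 10 members, 9 hold the GC box, 3 the CCAAT box (33.85% of all promoters), 2 the ETS motif and 1 the E-box CACGTG (6.02%, *Bax*). The STAT motif TTCNNNGAA (7.02% of all promoters), the CRE motif TGACGTCA (1.55%) and the TATA motif TATAAA (12.37%) were in 0 of the 14.

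Beyond the 10, the table holds 16 other genes of the BCL2 family or of proteins named as its interactors (*Bnip2*, *Bnip3* and *Bnip3l*). Of the 16, 11 were tested, 1 was called higher and 5 were called lower, beside 21.0% and 20.8% of all tested genes. The median log2 fold change of the 11 was -0.18. *Pmaip1*, which encodes the BH3-only protein NOXA and binds MCL1, rose from 45.1 ± 1.00 to 57.0 ± 4.06 CPM (log2 fold change 0.34, SE 0.06, edgeR adjusted p = 5.19e-04). The BH3-only genes *Bmf* and *Hrk* fell, *Bmf* from 29.8 ± 2.35 to 17.4 ± 0.248 CPM (-0.78, SE 0.07, edgeR adjusted p = 3.24e-06) and *Hrk* from 13.4 ± 1.19 to 7.59 ± 0.880 CPM (-0.83, SE 0.11, edgeR adjusted p = 6.29e-05). *Bbc3*, which encodes PUMA, fell by a smaller 0.18 on the log2 scale (edgeR adjusted p = 0.0195). Thus BH3-only genes outside the 10 moved in both directions, while *Bid*, *Bad* and *Bcl2l11* did not pass. *Bcl2l14* (-0.86, edgeR adjusted p = 8.15e-04) and *Bcl2l12* (-0.43, edgeR adjusted p = 0.00563) fell as well. *Bik* (-0.68), *Bnip3* (-0.17), *Bnip3l* (-0.12), *Bcl2l13* (-0.07) and *Bnip2* (0.09) had edgeR adjusted p of 0.170 or more. *Bcl2l10*, *Bcl2l15* and the 3 *Bcl2a1* genes had at most 7 counts in any library and were not tested.

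The counts per list that follow stand beside the 41.7% of all tested genes that were called. Downstream of the mitochondria, 3 of 13 apoptosome and caspase genes were called higher and 4 lower. *Casp9*, the initiator caspase of the apoptosome, went from 26.2 ± 1.12 to 19.6 ± 1.16 CPM (-0.42, edgeR adjusted p = 3.37e-04), and *Casp2* (-0.31) and *Cycs* (-0.20), which encodes cytochrome c, also fell. The nuclease genes *Endog* (0.50) and *Dffb* (0.46) and the inhibitor gene *Dffa* (0.23) rose. Among inhibitors of apoptosis and their antagonists 3 of 10 were called higher and 2 lower. *Birc7* (1.502) rose from only 5 to 11 counts in WT to 22 to 36 counts in knockout ASCs, *Birc5* (0.24) and *Birc6* (0.23) rose less, and *Birc2* (-0.34) and *Htra2* (-0.25) fell.

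In the death receptor list 2 of 11 tested genes were called, both higher, namely the kinase genes *Ripk1* (0.63, edgeR adjusted p = 1.50e-04) and *Ripk3* (0.56, edgeR adjusted p = 3.15e-05), which also act in necroptosis. Among genes that regulate BCL2 proteins, 10 of 23 were called higher and 5 lower. *Trp53*, which encodes p53, rose from 325 ± 24.3 to 436 ± 22.3 CPM (0.42, edgeR adjusted p = 1.26e-04), and *Mdm2*, which encodes its ubiquitin ligase and is also its target, from 129 ± 3.23 to 199 ± 1.85 CPM (0.63, edgeR adjusted p = 7.29e-07). The 14-3-3 gene *Ywhah* (0.33) rose as well. The stress response genes *Ddit3* (-1.23, edgeR adjusted p = 2.40e-06) and *Trib3* (-0.79) fell, as did the kinase gene *Mapk8* (-0.37), which encodes JNK1. Of 16 mitochondrial membrane partners 5 were called higher, led by the fusion genes *Mfn2* (0.43) and *Opa1* (0.36) and by *Slc25a5* (0.16), and 3 lower, *Tspo* (-0.71), *Ghitm* (-0.43) and *Vdac3* (-0.27). Over the 6 lists 43 of 84 tested genes were called, 24 higher and 19 lower, beside 41.7% called over all tested genes (21.0% higher, 20.8% lower), and their median was -0.01. With library totals in place of TMM the split was 19 higher and 25 lower, and with the hepatocyte covariate 16 higher and 17 lower.

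**Figure D5:**
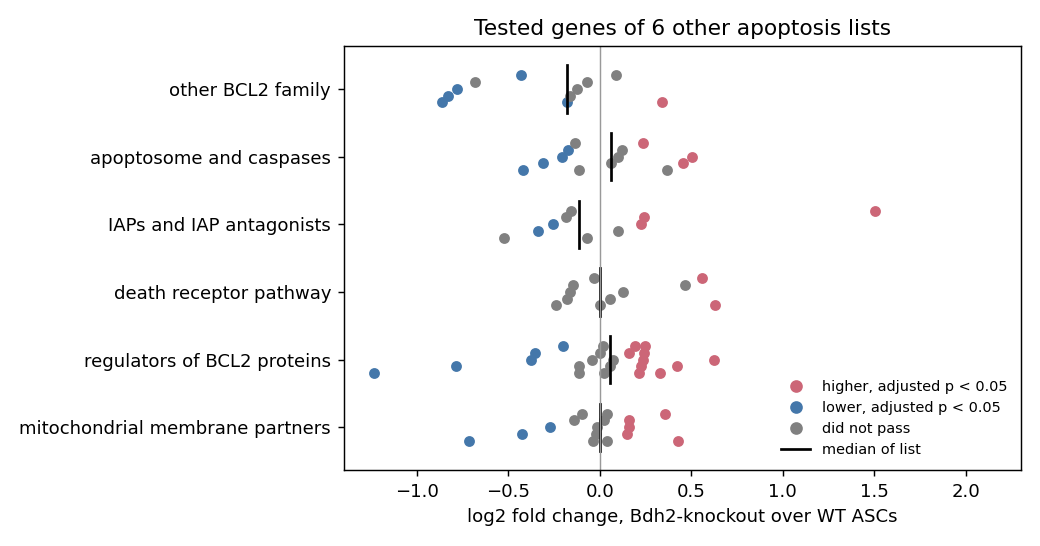
Log2 fold change of *Bdh2*-knockout over WT ASCs for each tested gene of 6 other apoptosis lists, 1 row per list, with colour for the edgeR result and a bar at each list's median. The medians lie between -0.18 (other BCL2 family) and 0.06 (apoptosome and caspases), and called genes lie on both sides of 0 in every list but the death receptor list.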

How the data were processed

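RNA-Seq of 3 WT and 3 *Bdh2*-knockout ASC libraries was analysed. The authors trimmed the reads, mapped them to GRCm38 with HISAT2 2.0.5 (version from the submitters' processing notes), counted them on genes with FeatureCounts and deposited raw counts that are not normalized, with a gene length beside each gene. The strand setting, the treatment of reads with several matches and the annotation release are not given in the sources used here. GENCODE M21, whose exons were used, holds 99.6% of the identifiers.

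Counts were tested in R 4.3.3 with edgeR 4.0.16 (TMM, filterByExpr, quasi-likelihood F test, genotype as factor, p-values adjusted by Benjamini-Hochberg across 16758 genes, threshold 0.05). The authors used DESeq2, which was an alternative here (1.42.0), as were limma-voom (3.58.1), other scalings and filters, the replicate number as a block, a hepatocyte covariate and left-out libraries. TPM and FPKM were derived in this work from counts and listed lengths. The functions were tested on simulated data. Named genes are the members, *Bdh2*, the detected other BCL2 genes, up to 3 called genes with the largest increase and 3 with the largest decrease per list, and the 5 genes most correlated with the member of smallest p. Members and lists were chosen with earlier results of these data known. Other experiments of the study were not analysed here.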

Additional observations from a re-analysis of the deposited data

How the results depend on the processing

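*Mcl1*, *Bcl2l1* and *Bcl2l2* kept their direction and their call in all 15 alternatives. *Bax* lost its call in 7, *Bak1* in 10 and *Bok* in 5, and 0 called members changed direction. The members called fell from 6 to 3 (2 higher, 1 lower) both with the hepatocyte covariate and without WT replicates 1 and 2 together, a fit in which the remaining WT sample is assumed to vary like the knockout samples. Over all genes the calls went from 6996 to 5049 with the covariate and to 4386 in the other fit. Leaving out 1 library gave 4 to 5 members, 5613 to 7409 genes and 36 to 47 genes of the other apoptosis lists. With the covariate, 33 genes of those lists were called. The median log2 fold change of the pro-survival genes was 0.31 with library totals, 0.41 with the covariate and 0.42 with a mean count of at least 50, where *Bcl2* was not tested, and 0.30 to 0.40 with 1 library left out. That of the pro-death genes was 0.018 with library totals and 0.0084 without WT replicates 1 and 2. The difference in pro-survival share was 5.29 percentage points, 4.85 to 6.01 with 1 library left out, and 0.557 without *Mcl1*. With the longest transcript as length, 6 of 10 members kept their place in the order of mean levels over the 6 libraries, 8 in WT alone and 6 in knockout alone.

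With the replicate number as a block, 4 members (3 higher, 1 lower) and 6452 genes were called, and *Bax* (0.15, edgeR adjusted p = 0.0641) and *Bak1* (-0.14, edgeR adjusted p = 0.0865) lost their call with differences that did not move at 2 decimals. Deviations of samples with the same number correlated at -0.154, 0.0995 and 0.245, and not every sample correlated best with its own number. With 3 samples per group, these correlations cannot decide whether equal numbers mark a shared batch, and the labels do not say. The cause of these shifts was not tested.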

Other observations

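The genes whose log2 CPM over the 6 libraries was most like that of *Mcl1*, among 9388 genes with a mean of at least 10 CPM, were *Kpna1* (Pearson r = 0.999), *Ripk4*, *L1td1*, *Tet3* and *Pdlim7* (0.998 each). Their log2 fold changes were 0.38, 0.44, 0.54, 0.46 and 0.58. The 6 points share the 2 genotypes, so a difference between the groups can by itself give a high r. Likeness within a genotype was not measured, and no p is given.

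Genes beside the members in the genome were also read, since *BCL2L1* lies in a region that human pluripotent cells are known to gain in culture. Within 1 Mb of *Bcl2l1*, 37 other genes were tested, of which 11 were called higher and 5 lower, beside 21.0% and 20.8% of all tested genes (median log2 fold change 0.19), where the 1308 tested genes of chromosome 2 had a median of 0.01. *Bcl2l1* ranked 11 among these neighbours and itself. Around *Mcl1* 14 of 75 genes were called higher and 10 lower (median -0.04), and *Mcl1* ranked 5. Around *Bcl2l2* 19 of 59 were called higher and 10 lower (median 0.09), and *Bcl2l2* ranked 55, near the bottom. Copy number was not measured here.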
